A study of Caenorhabditis elegans with 8 samples.

Results

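The heat shock proteins and DNJ cochaperones of Caenorhabditis elegans were followed in RNA from sorted cells of wild-type animals and of animals with an activated SKN-1. Members were taken by name: every gene with an hsp or dnj symbol, without the organelle chaperones hsp-3, hsp-4, hsp-6, hsp-60, dnj-7 and dnj-27, plus the HSP70 genes F44E5.4 and F44E5.5, the heat shock factor gene hsf-1 and the adaptor gene sti-1. This gave 52 of the 46928 gene rows in the count files. They comprise 15 small heat shock protein genes, 5 HSP70 and HSP110 genes, 2 HSP90 genes, 27 DNJ genes, hsf-1 and sti-1, and hsp-2, which is annotated as a pseudogene. A low-count filter was passed by 45 of them. The 7 others were hsp-2, with 46 counts over all libraries, and 6 hsp-16 genes, with between 9 (hsp-16.48) and 82 counts (hsp-16.1).

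The 2 genotypes were wild type (N2) and skn-1gf(lax188). Each gave 4 libraries. The lax188 mutation leaves SKN-1, the worm counterpart of mammalian NRF factors and an activator of detoxification genes, constitutively active. Animals of both genotypes carried daf-7p::gfp, a fluorescent reporter of the ASI sensory neurons, and lax188 is an allele of the whole animal rather than of those neurons. L4 larvae, about 250000 of them grown at 20 °C on OP50 bacteria, were dissociated with a detergent and reductant for 2 minutes and with Pronase for 20 minutes before the sort. Both genotypes went through that dissociation, and no undissociated sample was analysed here, so its share in any chaperone level cannot be told apart from the level in intact animals. The sample titles call the samples neurons and biological replicates, and the labels say nothing more about the replicates. The extraction text speaks of homogenised animals, not of sorted cells.

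Chaperones hold unfolded proteins and help them fold. HSP70 proteins bind and release clients in cycles of ATP hydrolysis, DNJ (HSP40) proteins deliver clients through their J domain and start that hydrolysis, HSP110 proteins exchange the nucleotide, and HSP90 receives clients from HSP70 through the adaptor STI-1. Small heat shock proteins form oligomers that keep damaged proteins from aggregating. HSF-1 is the transcription factor that drives the heat-inducible members, above all the hsp-16 genes and the inducible HSP70 genes, while hsp-1, hsp-90 and most DNJ genes are also transcribed without stress.

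Total gene counts per library were 2976889 to 10740970. Libraries are listed in the order of their replicate numbers, which do not pair the genotypes. Levels are given as CPM (reads of a gene scaled to the TMM-adjusted library size). Positive log2 fold changes mean higher in skn-1gf, and SE is the standard error of edgeR's fit. Wild-type replicate 2 stood apart from the other libraries on the first principal component, at 202 against values between −88.3 and 18.2, and had 11909 genes with a count where the others had 14248 to 20394. Markers of the labelled cell type were scarce. The 8 ASI markers took 0.00132 to 0.00308% of protein-coding counts in wild type and 0.00146 to 0.0196% in skn-1gf, and str-3 and str-2 were at 0 in 7 of 8 libraries each. Body wall muscle markers (10 of 10 detected) took 1.39 to 2.32% and 0.831 to 3.33%, so the levels below are those of mixed tissue and cannot be placed in ASI neurons. In such mixtures fewer cells of a type and less RNA per cell cannot be told apart.

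No member differed between the genotypes by edgeR's quasi-likelihood test. Of the 45 members tested, 0 had an adjusted p under 0.05, where the background was 0% of 12734 genes. At an unadjusted p under 0.05 there were also 0 members, against 4.07% of all genes tested, and the smallest unadjusted p was 0.0658, for hsp-12.2. DESeq2, run on all genes with a count, likewise called 0 members after adjustment, beside 3 of 24261 genes. At an unadjusted p under 0.05 it had 1 member, hsp-12.1, beside 4.61% of all genes. In 0 members did the 4 libraries of one genotype lie wholly above or below those of the other, a separation that 2.17% of all genes tested showed. Log2 fold changes were positive in 24 members and negative in 21, with a median of 0.03, beside 53.7% positive and a median of 0.04 over all genes tested. Scaling to total counts moved the median of all genes to −0.12 and left 12 members positive and 33 negative, beside 38.5% positive over all genes.

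How much could have been missed differed by class. The 95% confidence interval lay within 2-fold in either direction for 18 members: 13 of 27 DNJ genes, hsp-1, hsp-110, hsp-90, hsf-1 and sti-1. For those genes a 2-fold difference lay outside the interval of this fit. The median interval extended 0.74 log2 units to either side for DNJ genes and 1.89 for the 9 small heat shock protein genes tested, beside 1.44 for all genes tested. For no small heat shock protein gene did the interval lie within 2-fold.

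**Figure D1:**
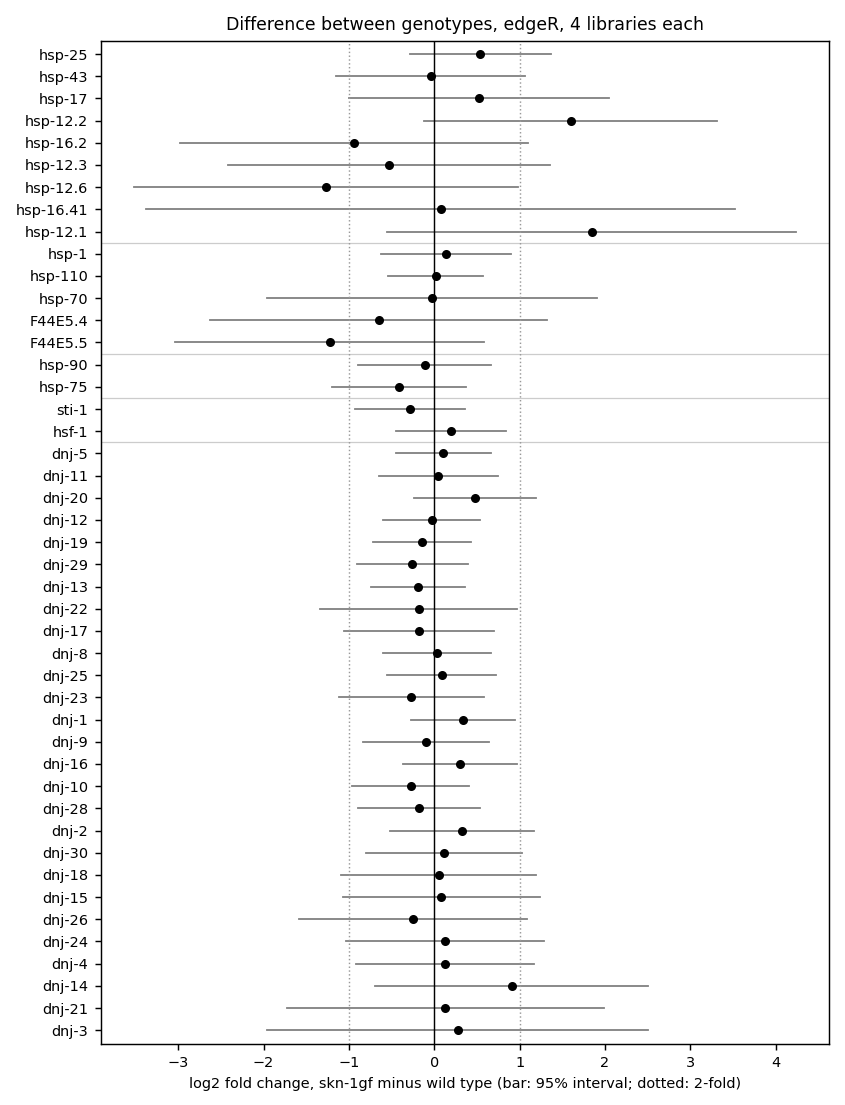
Log2 fold change of each of the 45 tested members (points) with its 95% confidence interval (bars), skn-1gf minus wild type, from 4 libraries per genotype; dotted lines mark a 2-fold difference. Every interval includes 0, and the widest belong to hsp-16.41, hsp-12.1, hsp-12.6 and dnj-3.

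The chaperone reads were dominated by a pair of constitutive genes, hsp-1 and hsp-90. All 52 members together took 0.773 to 1.15% of protein-coding counts. Their summed level was 6439, 9387, 6759 and 7476 CPM in the wild-type libraries 1 to 4, and 7012, 9220.2, 7193 and 7511 in the 4 skn-1gf libraries. The highest sums were in the libraries numbered 2 of both genotypes. Of this sum hsp-1 and hsp-90 made up between 48.5% (wild-type replicate 1) and 61.7% (wild-type replicate 2), and the 27 DNJ genes between 25.6 and 37.1%. Small heat shock proteins made up 3.27 to 4.67% in wild type and 1.41 to 8.21% in skn-1gf, a wider range in the latter.

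**Figure D2:**
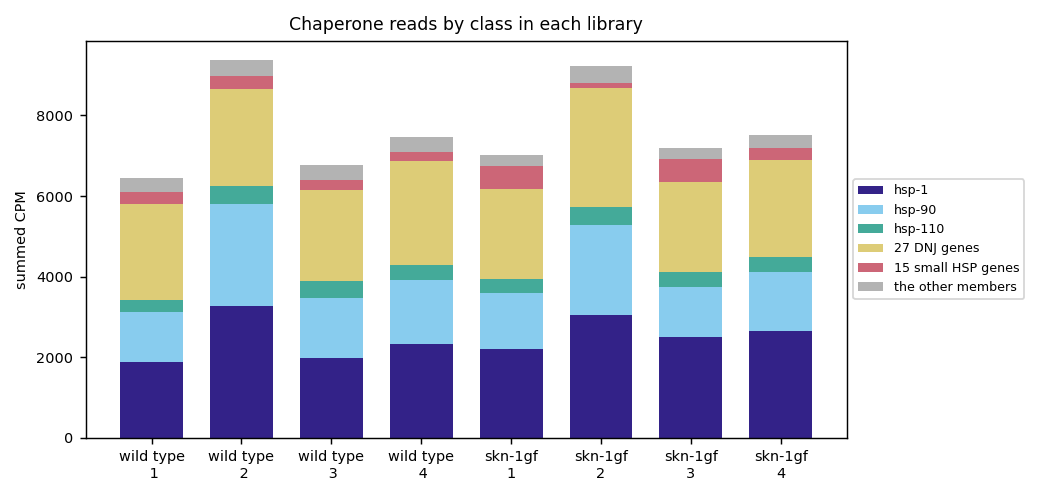
Summed CPM of the members in each library (stacked bars from 0), split into hsp-1, hsp-90, hsp-110, the 27 DNJ genes, the 15 small heat shock protein genes and the others. The libraries numbered 2 reached 9387 and 9220.2 CPM, with the tallest hsp-1 and hsp-90 segments, and the small heat shock protein band is thinnest in skn-1gf replicate 2.

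Per exonic kilobase, hsp-1 was the highest member in both genotypes, at 1142 and 1254 CPM per kb in wild type and skn-1gf means. Next came hsp-90 at 724 and 669, and hsp-1 exceeded it by 1.49 to 2.28 times in each of the 8 libraries. A step below lay hsp-110 (142 and 144), the muscle small heat shock protein gene hsp-25 (127 and 184) and sti-1 (113 and 93.1). Among DNJ genes, dnj-19 (125 and 113), dnj-11 (122.2 and 126), dnj-13 (121 and 106) and dnj-12 (117 and 114) lay there too. So did dnj-20 (106 and 148) and dnj-22 (106 and 93.6). In the skn-1gf mean hsp-12.2 reached 109, with 284 in replicate 3, beside 35.9 in wild type. The order of these genes was not the same in both genotype means: hsp-110 came first of them in wild type, and hsp-25 and then dnj-20 in skn-1gf. The inducible HSP70 genes were far lower per kb, at 8.399 and 8.23 for hsp-70 and 5.55 and 3.52 for F44E5.4. So was hsf-1, at 33.98 and 38.9.

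Among the constitutive cytosolic chaperones, hsp-1, the HSC70 gene, was at 1873, 3281, 1989 and 2326 CPM in the wild-type libraries 1 to 4, and at 2202, 3049, 2489 and 2657 in the 4 skn-1gf libraries. The genotypes overlapped, with the libraries numbered 2 highest in each. Its log2 fold change was 0.13 (SE 0.35; 95% interval from −0.63 to 0.90). The cytosolic HSP90 gene hsp-90 was at 1248, 2512, 1480.2 and 1587 CPM in the wild-type libraries 1 to 4, and at 1379, 2240.3, 1244 and 1447 in the 4 skn-1gf libraries. Here, too, the libraries numbered 2 stood above the rest of their genotype, and the log2 fold change was −0.11 (SE 0.36; 95% interval from −0.89 to 0.66). For hsp-90 the sign turned without wild-type replicate 2 (0.13).

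The HSP110 gene hsp-110, whose product serves HSC70 as nucleotide exchange factor, was one of the steadiest members. It was at 288, 449.9, 416 and 385 CPM in the wild-type libraries 1 to 4, and at 349.9, 443, 384 and 379 in the 4 skn-1gf libraries, with 0.02 (SE 0.26; 95% interval from −0.54 to 0.57) as its log2 fold change. Its sign turned with total-count scaling (−0.10), or when wild-type replicate 1 (−0.10) or skn-1gf replicate 2 (−0.06) was dropped. The adaptor gene sti-1 was at 95.8, 198, 89.01 and 113 CPM in the wild-type libraries 1 to 4, and at 95.01, 109, 100.1 and 103.7 in the 4 skn-1gf libraries. The skn-1gf libraries lay within a narrow band and wild-type replicate 2 well above it. Its log2 fold change of −0.28 (SE 0.30; 95% interval from −0.92 to 0.36) became 0.03 without that library. The mitochondrial HSP90 gene hsp-75 (TRAP1 in mammals) was at 120.2, 144, 101 and 124 CPM in the wild-type libraries 1 to 4, and at 44.4, 163, 72.4 and 88.3 in the 4 skn-1gf libraries. In skn-1gf it ranged over 3.67 times from replicate 1 to replicate 2, on both sides of all wild-type values, with a log2 fold change of −0.41 (SE 0.36; 95% interval from −1.20 to 0.38).

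The transcription factor gene hsf-1 was at 101, 50.7, 89.2 and 96.1 CPM in the wild-type libraries 1 to 4, and at 79.2, 124, 84.03 and 98.4 in the 4 skn-1gf libraries. Wild-type replicate 2 was the lowest and skn-1gf replicate 2 the highest library, and the other 6 lay between 79.2 and 101 CPM. The log2 fold change was 0.20 (SE 0.30; 95% interval from −0.45 to 0.84), and it was −0.14 with both libraries numbered 2 left out. Of the genes whose products bind HSF-1 and restrain it in worms, hsb-1 was at 35.4 ± 15.04 CPM (SD, n = 4) in wild type and 53.1 ± 14.5 in skn-1gf and ddl-2 at 19.3 ± 11.4 CPM (SD, n = 4) in wild type and 31.8 ± 10.1 in skn-1gf. Their partner ddl-1, named here to complete that complex, was at 17.4 ± 3.25 CPM (SD, n = 4) in wild type and 14.4 ± 7.13 in skn-1gf. The log2 fold changes were 0.58 (SE 0.41), 0.72 (SE 0.60) and −0.27 (SE 0.53), none past the test.

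The heat-inducible HSP70 genes were present at low levels in both genotypes. The first, hsp-70, was at 11.5, 0.316, 29.5 and 27.8 CPM in the wild-type libraries 1 to 4, and at 31.6, 12.02, 11.4 and 12.7 in the 4 skn-1gf libraries. Wild-type replicate 2 had 2 counts of it and stood far below the other libraries, which lay between 11.4 and 31.6 CPM in both genotypes. Its log2 fold change was −0.03 (SE 0.89; 95% interval from −1.96 to 1.90), and the sign turned in 8 of 19 alternative settings, among them the replicate block (0.63) and limma-voom (0.78). Neighbours in opposite orientation on chromosome II, F44E5.4 and F44E5.5 encode closely similar HSP70 proteins. F44E5.4 was at 5.32, 3.79, 32.5 and 4.94 CPM in the wild-type libraries 1 to 4, and at 11.6, 1.49, 11.96 and 4.49 in the 4 skn-1gf libraries. Wild-type replicate 3 was the highest library and skn-1gf replicate 2 the lowest, and without the former the log2 fold change went from −0.65 (SE 0.91) to 0.65. F44E5.5 was at 3.62, 8.38, 13.8 and 4.13 CPM in the wild-type libraries 1 to 4, and at 3.08, 1.35, 4.67 and 3.74 in the 4 skn-1gf libraries. All 4 skn-1gf values lay below wild-type replicates 2 and 3, and skn-1gf replicate 3 lay above the other wild-type libraries. The difference did not pass the test, with a log2 fold change of −1.23 (SE 0.83; 95% interval from −3.03 to 0.58). Reads that align to more than 1 place (12.3 to 30.3% of all counted reads) were kept apart from gene counts, so levels of near-identical copies are uncertain.

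The hsp-16 genes, the classical reporters of the heat shock response in worms, had 1012 counts over the 8 libraries, of which hsp-16.2 held 398 in wild type and 192 in skn-1gf. They lie on chromosome V, most of them in divergent pairs: hsp-16.2 beside hsp-16.41, hsp-16.1 beside hsp-16.48, and hsp-16.49 beside hsp-16.11. The latter 2 pairs are near-identical copies of each other, and the annotation used for lengths gives hsp-16.11 and hsp-16.49 the names of their copies in the other pair. The most abundant, hsp-16.2, was at 2.77, 18.7, 22.9 and 7.53 CPM in the wild-type libraries 1 to 4, and at 17.9, 2.97, 4.96 and 0.749 in the 4 skn-1gf libraries. High and low libraries occurred in both genotypes, from 0.749 CPM in skn-1gf replicate 4 to 22.9 CPM in wild-type replicate 3. Its log2 fold change was −0.94 (SE 0.94; 95% interval from −2.98 to 1.10), and it was −2.12 without skn-1gf replicate 1.

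Its divergent neighbour hsp-16.41 was at 1.06, 0, 8.38 and 1.94 CPM in the wild-type libraries 1 to 4, and at 6.86, 0, 4.96 and 0 in the 4 skn-1gf libraries. The libraries with 0 counts were wild-type replicate 2 and skn-1gf replicates 2 and 4. There 3 counts, set here as an approximate upper limit for a count of 0, correspond to 0.474, 0.405 and 1.12 CPM. Wild-type replicate 2 thus had 118 counts of hsp-16.2 and 0 of hsp-16.41. The log2 fold change of hsp-16.41 was 0.07 (SE 1.59; 95% interval from −3.38 to 3.53), and its sign turned in 9 of 19 alternative settings. Of the members below the filter, hsp-16.1 had 5, 0, 45 and 11 counts in the wild-type libraries, in the order of their numbers, and 2, 5, 3 and 11 in those of skn-1gf. For hsp-16.49 the counts were 6, 0, 22 and 19, and 24, 1, 3 and 2. In wild type, replicate 3 held the most counts of both genes. Totals in wild type and skn-1gf were 7 and 4 for hsp-16.11, 4 and 5 for hsp-16.48, 26 and 38 for hsp-16.20, and 5 and 6 for hsp-16.21. Exons of hsp-16.20 and hsp-16.21 overlap those of other genes, and strand was not stated, so their few counts cannot be assigned with certainty.

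Wild-type replicate 3 was highest of its genotype for F44E5.4, F44E5.5, hsp-70, hsp-16.1, hsp-16.2, hsp-16.41 and hsp-16.49. Within skn-1gf, replicate 1 was highest for hsp-70, hsp-16.2, hsp-16.41 and hsp-16.49. Summed over the 8 hsp-16 genes the level was 5.85, 18.7, 43.4 and 13.1 CPM in the wild-type libraries 1 to 4, and 30.4, 6.62, 14.01 and 6.36 in the 4 skn-1gf libraries, and over hsp-70, F44E5.4 and F44E5.5 it was 20.4, 12.5, 75.8 and 36.8 CPM in the wild-type libraries 1 to 4, and 46.3, 14.9, 28.01 and 20.96 in the 4 skn-1gf libraries. For both sums the SD within each genotype exceeded the difference between the genotype means. In wild type, the pan-neuronal markers (11 genes) were also highest in replicate 3, at 0.201% of protein-coding counts against 0.0401 to 0.0742% in the others. So were the pharynx (0.117%), glia (0.00880%) and ASI (0.00308%) lists. Within skn-1gf these lists were highest in replicate 3 (pan-neuronal 0.176%, beside 0.169% in replicate 1), whereas both sums were highest in replicate 1. The part of these lists in the levels was not tested.

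**Figure D3:**
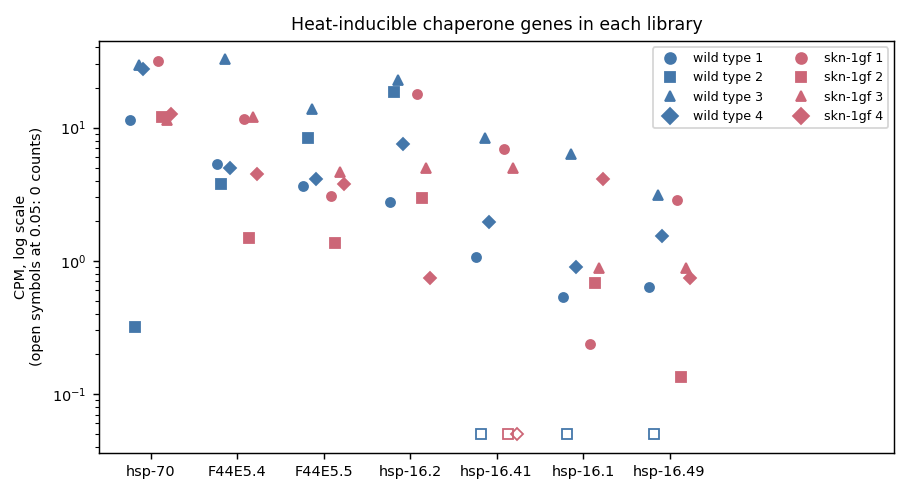
CPM (log scale) of 7 heat-inducible members in each library, wild type in blue and skn-1gf in red, with a symbol per replicate number and open symbols at the bottom for 0 counts. Both genotypes cover overlapping ranges, and wild-type replicate 3 (blue triangles) is the highest wild-type library for each gene.

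The other small heat shock protein genes held the members with the largest log2 fold changes in the class, and none passed the test. The gene hsp-12.2 had the smallest p of all members. It was at 21.2, 13.8, 27.1 and 12.4 CPM in the wild-type libraries 1 to 4, and at 59.04, 5.27, 147 and 13.8 in the 4 skn-1gf libraries. Replicates 1 and 3 of skn-1gf lay above all wild-type libraries, replicate 4 within their range and replicate 2 below them. The log2 fold change was 1.60 (SE 0.79; 95% interval from −0.12 to 3.31), and without skn-1gf replicate 3 it was 0.44. Within skn-1gf the pharynx, pan-neuronal, ASI, glia and body wall muscle marker lists had the same order of libraries as hsp-12.2, and the other lists did not. Pharynx markers (6 genes) took 0.305, 0.0667, 0.0322 and 0.00805% of protein-coding counts in skn-1gf replicates 3, 1, 4 and 2. Pan-neuronal markers took 0.176, 0.169, 0.0729 and 0.0292%, and ASI markers 0.0196, 0.0100, 0.00607 and 0.00146%. In wild type the pharynx list ran from 0.0221 to 0.117% and the pan-neuronal list from 0.0401 to 0.201%, both highest in replicate 3. Their part in the result was not tested.

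Its relative hsp-12.1 was at 4.26, 0, 2.13 and 1.46 CPM in the wild-type libraries 1 to 4, and at 10.4, 3.24, 8.46 and 6.36 in the 4 skn-1gf libraries. Values were low throughout, with 0 counts in wild-type replicate 2 (3 counts there are 0.474 CPM), and the genotypes overlapped through wild-type replicate 1 and skn-1gf replicate 2; the log2 fold change was 1.84 (SE 1.10; 95% interval from −0.55 to 4.24). Without wild-type replicate 1 it was 2.54. In the other direction went hsp-12.6, a gene known to respond to DAF-16 and HSF-1, at 1.702, 6.797, 2.27 and 7.04 CPM in the wild-type libraries 1 to 4, and at 3.79, 0.2702, 1.75 and 1.497 in the 4 skn-1gf libraries. Wild-type replicates 2 and 4 were the highest, replicates 1 and 3 lay among the skn-1gf libraries, and the log2 fold change was −1.27 (SE 1.04; 95% interval from −3.52 to 0.98). Without skn-1gf replicate 1 it was −1.91. The gene hsp-12.3 ranged from 1.87 to 15.5 CPM over the 8 libraries, with a log2 fold change of −0.53 (SE 0.87). That value became −1.41 when skn-1gf replicate 1 was dropped, and 0.14 when both number 2 libraries were.

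The most abundant small heat shock protein gene of the set was hsp-25, whose product is found at dense bodies and M-lines of body wall muscle. It was at 166, 207, 78.5 and 123 CPM in the wild-type libraries 1 to 4, and at 299, 97.4, 241 and 198 in the 4 skn-1gf libraries. The 3 highest values were in skn-1gf replicates 1 and 3 and in wild-type replicate 2, and the lowest were in wild-type replicate 3 and skn-1gf replicate 2. Its log2 fold change was 0.54 (SE 0.38; 95% interval from −0.29 to 1.37). Without skn-1gf replicate 2 it was 0.77 (unadjusted p = 0.0398 and adjusted p = 0.693 in edgeR). Body wall muscle markers took 1.85, 2.32, 1.89 and 1.39% of protein-coding counts in the wild-type libraries 1 to 4, and 3.25, 0.831, 3.33 and 2.34% in the 4 skn-1gf libraries. The same 4 libraries were the highest for hsp-25 and for this list, and the part of muscle content in the level was not tested.

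Also low in skn-1gf replicate 2 were hsp-43 and hsp-17. For hsp-43 that library had 11.6 CPM where the other 7 ranged from 49.3 to 103.6 CPM, and for hsp-17 it had 3.24 CPM where the others ranged from 12.7 to 55.02 CPM. Their log2 fold changes were −0.04 (SE 0.51) and 0.52 (SE 0.70). Of the 9 small heat shock protein genes tested, 4 had their lowest value in skn-1gf replicate 2 and 4 their highest in skn-1gf replicate 1, beside 17.5% and 17.5% of all genes tested. In skn-1gf replicate 2 the muscle, intestine (0.217%), hypodermis (0.00789%), pharynx and pan-neuronal (0.0292%) marker lists were at their lowest of all libraries. Germline and oocyte markers (0.728%) and coelomocyte markers (0.0413%) were at their highest there.

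**Figure D4:**
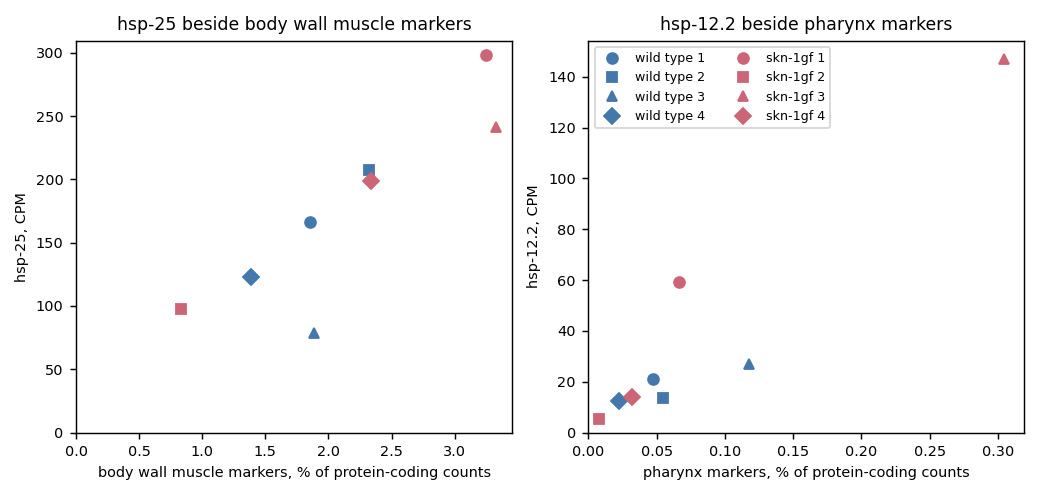
Left, hsp-25 (CPM) against the share of protein-coding counts taken by 10 body wall muscle markers; right, hsp-12.2 (CPM) against that of 6 pharynx markers; 1 symbol per library, wild type in blue and skn-1gf in red. Both pairings were chosen after the values were seen. The libraries skn-1gf 1 and 3 lie at the upper right for hsp-25, and skn-1gf 2 lies at the lower left in both panels.

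The 27 DNJ genes all passed the filter and had a median coefficient of variation of 23.6% in wild type and 36.4% in skn-1gf, beside 51.0 and 52.1% for all genes tested. Summed, they were at 2391, 2403, 2255 and 2562 CPM in the wild-type libraries 1 to 4, and 2240.04, 2946, 2241 and 2416 in the 4 skn-1gf libraries. The wild-type libraries lay close together, skn-1gf replicate 2 lay above all others, and the 3 other skn-1gf libraries lay within or just below the wild-type range. The median SE of a DNJ log2 fold change was 0.34, beside 0.66 for all genes tested. Log2 fold changes ran from −0.28 (dnj-10, a mitochondrial DNAJA3-type gene) to 0.90 (dnj-14), with 16 positive and 11 negative and a median of 0.05.

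Of the DNJ genes, dnj-20, an orthologue of the mammalian endoplasmic reticulum cochaperone DNAJB11, had the smallest p. It was at 255, 314, 188 and 198 CPM in the wild-type libraries 1 to 4, and at 488, 189, 380.2 and 274 in the 4 skn-1gf libraries. As for hsp-25, skn-1gf replicates 1 and 3 and wild-type replicate 2 were the highest, and the log2 fold change was 0.48 (SE 0.33; 95% interval from −0.23 to 1.19). Intestine markers (10 genes) took 2.51, 0.217, 2.21 and 2.43% of protein-coding counts in skn-1gf replicates 1 to 4 and 0.659 to 1.97% in wild type. Body wall muscle markers took 3.25, 0.831, 3.33 and 2.34%, and 1.39 to 2.32% in wild type. The 4 highest libraries for dnj-20 were also the highest for both lists, and the part of either list was not tested. The J protein gene dnj-14 encodes cysteine string protein, a chaperone of synaptic vesicles. It was at 14.6, 0.7903, 14.6 and 11.1 CPM in the wild-type libraries 1 to 4, and at 20.9, 12.4, 23.9 and 19.8 in the 4 skn-1gf libraries. Wild-type replicate 2, with 5 counts, was far below the rest, and the log2 fold change of 0.90 (SE 0.73; 95% interval from −0.69 to 2.50) became 0.49 without it. Its exons overlap those of dhhc-10 on the opposite strand over 72 bases, and reads there cannot be assigned without strand.

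For dnj-1 and dnj-16, the remaining DNJ genes with the smallest p, the levels in wild type were 48.4 to 83.1 and 39.5 to 72.6 CPM, and in skn-1gf 71.9 to 101 and 50.9 to 88.4 CPM. Wild-type replicate 2 was the lowest library for both. Their log2 fold changes were 0.34 (SE 0.28; 95% interval from −0.27 to 0.94) and 0.31 (SE 0.31; 95% interval from −0.36 to 0.97). The class A cochaperone genes dnj-12 and dnj-19 and the class B gene dnj-13, whose product works with HSC70 and HSP110 in disaggregation, gave log2 fold-change estimates of −0.03 (SE 0.26), −0.14 (SE 0.26) and −0.19 (SE 0.26). For these 3 genes the interval lay within 2-fold. Similar intervals held for the ribosome-associated zuotin-type gene dnj-11 (0.05, SE 0.32), the SEC63-type gene dnj-29 (−0.26, SE 0.30) and the auxilin gene dnj-25, which acts in clathrin uncoating (0.09, SE 0.29).

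A few libraries held most extreme values of the DNJ genes. The highest library exceeded the lowest by less than 3 times in 16 of 27 genes, and in 22 of 27 when wild-type replicate 2 was left out. Skn-1gf replicate 2 was the highest library for 13 of 27 DNJ genes and wild-type replicate 2 the lowest for 14, where these libraries were highest and lowest for 22.7% and 32.5% of all genes tested. Wild-type replicate 2 had 0 counts of dnj-3 and 3 of dnj-21, the gene of a TIM14-type import motor subunit. Skn-1gf replicate 1 had 21.8 CPM of dnj-23, where the other libraries had 57.4 to 93.1 CPM.

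**Figure D5:**
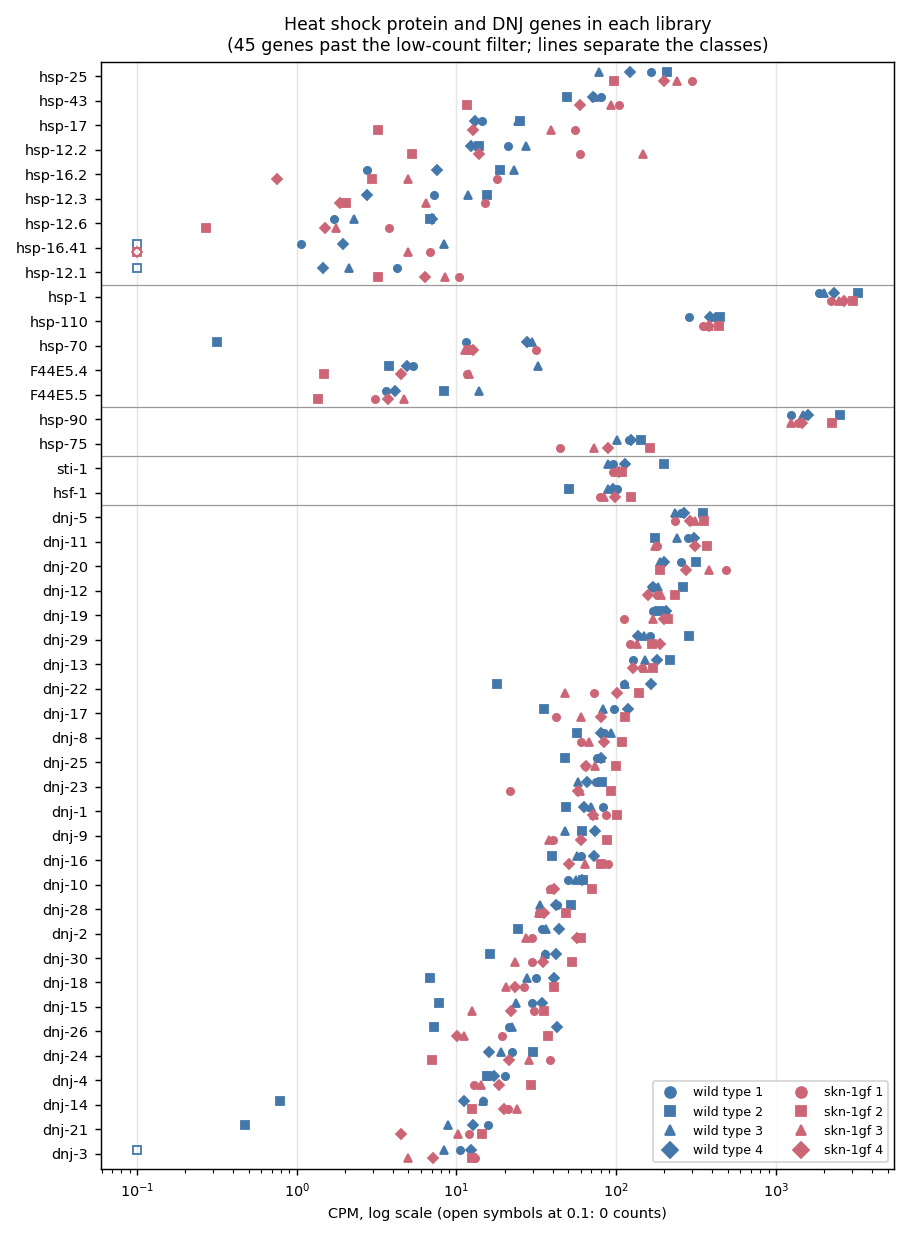
CPM (log scale) of the 45 tested members in every library, by class (grey lines) and ordered by wild-type mean; wild type in blue, skn-1gf in red, a symbol per replicate number, open symbols for 0 counts. Without wild-type replicate 2 (blue squares), 22 of the 27 DNJ genes span less than 3 times from lowest to highest library, and small heat shock protein genes spread widely, with skn-1gf replicate 2 (red squares) often lowest.

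Because the libraries numbered 2 stood apart in several of these genes, the comparison was also made without them, with 3 libraries per genotype. Again 0 members passed after adjustment (smallest adjusted p = 0.334 in edgeR, for hsp-25). At an unadjusted p under 0.05 there were 9 of 46 members, beside 11.7% of all genes tested. Positive among these were hsp-25 (log2 fold change 1.00), dnj-20 (0.82), hsp-12.1 (1.68) and hsp-12.2 (1.86). Negative were hsp-75 (−0.77), dnj-22 (−0.83), dnj-26 (−1.08), dnj-17 (−0.73) and dnj-10 (−0.51). Of the 46 members, 16 were then positive and 30 negative, with a median of −0.20, beside 50.1% positive over all genes tested.

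Other genes of the cytosolic chaperone system did not pass the test either. The list holds the 8 subunits of the CCT chaperonin, 6 prefoldin subunits, HSP90 and HSP70 cochaperones, HSF-1 regulators and sip-1, and all 29 were tested. A small heat shock protein gene without an hsp symbol, sip-1 was at 830 ± 127 CPM (SD, n = 4) in wild type and 679 ± 305 in skn-1gf, above hsp-25. None of the 29 passed after adjustment and 0 had an unadjusted p under 0.05 in edgeR, beside 0% and 4.07% of all genes tested. Of them 9 were positive and 20 negative, with a median of −0.09, beside 53.7% positive and a median of 0.04 over all genes tested. Smallest in p was fkb-6, an immunophilin-type HSP90 cochaperone, at 217 ± 82.7 CPM (SD, n = 4) in wild type and 145 ± 51.8 in skn-1gf; its log2 fold change was −0.58 (SE 0.33). The kinase cochaperone gene cdc-37 was at 133 ± 37.9 CPM (SD, n = 4) in wild type and 101 ± 37.4 in skn-1gf. CCT subunits differed little, from −0.13 (cct-5) to 0.10 (cct-6). Among the 6 organelle chaperones left out of the set, 0 passed and 5 were positive, with a median of 0.20. Over all genes tested 0% passed and 53.7% were positive, with a median of 0.04. The reticulum genes dnj-7 and dnj-27 gave log2 fold-change estimates of 0.76 (SE 0.63) and 0.28 (SE 0.45), the reticulum HSP70 gene hsp-3 0.26 (SE 0.33) and the mitochondrial chaperonin gene hsp-60 −0.18 (SE 0.31).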

How the data were processed

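RNA libraries (Ovation SoLo, per the labels' protocols) from 4 wild-type and 4 skn-1gf samples were analysed from the count files deposited by the authors, whole-number read counts per gene, not normalised. Per the submitters' processing notes, STAR 2.7.6a, HTSeq 2.0.2, DESeq2 and R 3.5.2 were used with build ce10; the sources used here give no strand setting, annotation release or duplicate handling. Rows that name no gene were left out of library sizes.

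Genes were tested with edgeR 4.0.16 (R 4.3.3): TMM scaling, filterByExpr (minimum count 10, minimum total 15), a quasi-likelihood fit on genotype, and Benjamini-Hochberg adjustment over 12734 genes at 0.05. Intervals are 95% and come from the fit. P-values come from a test of the genotype difference against the spread between these libraries. Exonic lengths, overlaps and gene orientation come from an annotation of another build (WBcel235), so no coordinates are given, and promoter and protein sequences were not analysed here. Alternatives used other scalings, filters, DESeq2 1.42.0, limma 3.58.1, a replicate block and left-out libraries.

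Members and lists were chosen with earlier results of these data known. Named were hsf-1, sti-1, hsp-90, hsp-1, hsp-110, the inducible HSP70 and hsp-16 genes, up to 4 genes per class with the smallest p, and the untested members; other genes were named after their values were seen.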

Additional observations from a re-analysis of the deposited data

Results flagged for a closer look

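Within each genotype, the highest or lowest library was compared with its nearest neighbour by Dixon's gap ratio (above its 95% critical value for 4 libraries) on log2 CPM. This was done for hsf-1, sti-1, hsp-90, hsp-1, hsp-110, the inducible HSP70 and hsp-16 genes, and up to 4 genes per class with the smallest p. The other members were not checked. Of 50 groups checked, 4 were marked; at the 95% level chance alone marks some groups among this many. The highest library stood apart for hsp-70 in skn-1gf replicate 1 (31.6 CPM), for F44E5.4 in wild-type replicate 3 (32.5 CPM) and for hsp-16.21 in wild-type replicate 3 (0.710 CPM, from 5 counts). For hsp-16.21 the other wild-type libraries had 0 counts, so any count in replicate 3 would have been marked. The lowest stood apart for dnj-14 in wild-type replicate 2 (0.790 CPM, from 5 counts).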

How the results depend on the processing

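In all 19 alternatives 0 members passed after adjustment, the smallest adjusted p being 0.175 (hsp-12.2, edgeR with no low-count filter). Over all genes, 159 of 24642 passed with no low-count filter, 3 of 24261 with DESeq2 and 6 of 12734 with sample quality weights. In every other setting 0 genes passed. Signs of several small fold changes turned, and the cause was not tested. With total-count scaling the log2 fold change was −0.000193 for hsf-1, −0.0964 for hsp-110 and −0.389 for hsp-16.41. With limma-voom it was 0.784 for hsp-70 and −0.514 for hsp-16.41. Under sample quality weights it was −0.0605 for hsf-1, 0.0718 for sti-1, 0.109 for hsp-90, 0.0807 for hsp-70, −1.56 for hsp-16.41, −0.0527 for dnj-1 and −0.0228 for dnj-16. With both libraries numbered 2 left out it was −0.137 for hsf-1. Leaving out 1 library at a time gave ranges of −0.407 to 0.0303 for sti-1, −0.338 to 0.125 for hsp-90, −0.0976 to 0.09995 for hsp-110, −0.521 to 0.353 for hsp-70, −1.06 to 0.649 for F44E5.4 and −0.852 to 1.52 for hsp-16.41.

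Same-numbered libraries did not deviate together throughout: correlations of their deviations were −0.0139, 0.0639, 0.513 and 0.0588 for numbers 1 to 4, and of the wild-type libraries replicate 3 alone correlated best with its own number. With the replicate block 0 members passed, and the log2 fold change was 0.634 for hsp-70 and −0.389 for hsp-16.41. The 6 untested hsp-16 genes had 9 to 82 counts over 8 libraries, and the median coefficient of variation of the tested small heat shock protein genes was 59.3% in wild type and 86.5% in skn-1gf.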
